A study of Glycine max with 12 samples.

Results

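The genes described here are the Aux/IAA, ARF and GH3 families of soybean, measured by RNA-seq in the root tip after brassinosteroid treatments. A gene was taken as a member when its description in the deposited annotation held the Pfam domain PF02309 (Aux/IAA), PF06507 (ARF) or PF03321 (GH3). This gave 143 of 52872 annotated genes, namely 60 Aux/IAA genes, 56 ARF genes and 27 GH3 genes. ARF genes were those with PF06507, and 31 of them also carried PF02309 while 25 did not. None of the 980 loci outside the annotation carried any of these domains (0 of 980).

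Auxin signaling runs through a short chain of proteins. Auxin response factors (ARFs) are transcription factors that bind auxin response elements in promoters, and Aux/IAA proteins bind to ARFs and repress their target genes. The domain PF02309 is the part through which the proteins of both families pair with each other. Auxin brings Aux/IAA proteins to the TIR1/AFB receptors, after which they are degraded and the ARFs are released. Many Aux/IAA and GH3 genes are themselves early auxin-induced genes. GH3 enzymes join amino acids to auxin or to other hormones such as jasmonate, which lowers or alters the active hormone pool. In Arabidopsis roots, auxin and brassinosteroids both set cell division and elongation, and they share many target genes.

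The samples were 12 libraries in 4 groups of 3. PPZ+BL seedlings received 0.1 μM propiconazole (PPZ, an inhibitor of brassinosteroid synthesis) for 2 days and then 0.01 nM brassinolide (BL, a brassinosteroid) for 0.5 days. PPZ seedlings received 0.1 μM PPZ for 2.5 days, BL seedlings received 0.01 nM BL for 0.5 days, and mock seedlings received neither. All were seedlings germinated for 3 days and then kept in hydroponic medium for 7.5 days, no transgene or mutation is given for them, and the RNA was taken from the last 1 cm of the root tip. The order of the agents in the PPZ+BL group follows the series description, since the sample label words it the other way round. The time to which the mock seedlings were matched is not given, the labels name the cultivar Wm82 where the study's methods name YC03-3, and the hormone is written both as eBL and as BL in the series text. The paper calls the replicates of PPZ, BL and mock biological, and what separates those of PPZ+BL is not given in the sources used here.

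The libraries held 18450894 to 24815541 counts each. The mock libraries varied most, with a mean correlation to their own replicates of 0.979 for mock 1, 0.987 for mock 2 and 0.984 for mock 3, against 0.988 to 0.994 in the other groups. Levels are given in CPM, which are counts relative to the TMM-adjusted size of a library, with 1 adjustment fitted over the 12 libraries together. Marker families differed between the groups as well. Summed counts of the 64 core histone genes, which mark dividing cells, lay between 2902 and 4360 CPM in PPZ+BL, 3309 and 4037 CPM in PPZ, 5102 and 5935 CPM in BL, and 2429 and 2796 CPM in mock. The 39 chlorophyll a/b binding genes, which mark green tissue, summed to between 441 and 638 CPM in PPZ+BL, 183 and 252 CPM in PPZ, 367 and 488 CPM in BL, and 168 and 320 CPM in mock. The 6 Rubisco small subunit genes, also taken as a mark of green tissue, stood in another order when summed. They summed to between 164 and 201 CPM in PPZ+BL and 153 and 209 CPM in PPZ. In BL their sums were between 151 and 166 CPM, and in mock between 333 and 408 CPM. Gene by gene, Rubisco differed from its sums. In PPZ+BL against PPZ, 3 rose and 0 fell of 4 tested at an adjusted p of 0.01 (median log2 fold change 3.16). The chlorophyll a/b binding genes had 18 higher and 0 lower of 26 there (median 1.86). In PPZ against mock, 3 Rubisco genes fell and 0 rose of 4 (median −2.31), and the chlorophyll a/b binding genes had 1 higher and 1 lower of 24. Of the 80 genes with the domain of Casparian strip membrane proteins, 69 had counts, and they summed to between 885 and 1141 CPM in PPZ+BL, 1076 and 1141 CPM in PPZ, 842 and 1003 CPM in BL, and 561 and 847 CPM in mock. The part of these markers in the results on auxin genes was not tested. In whole root tips, fewer cells of a type and less RNA per cell cannot be told apart.

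In CPM the families differed in how much of the library they took. The median gene had a mean of 15.9 CPM among Aux/IAA genes, 21.8 CPM among ARF genes and 0.428 CPM among GH3 genes. No counts were found in any library for 2 Aux/IAA and 2 GH3 genes, and at most 3 counts in every library were found for 4 Aux/IAA genes, 1 ARF gene and 7 GH3 genes. CPM grows with gene length, so levels were compared between genes by the deposited FPKM values. The strongest member was the Aux/IAA gene Glyma.10G180100 (chromosome 10, 41470314 to 41473052, Wm82.a4.v1), with a mean of 243 FPKM and 315 CPM. It had 340, 369 and 335 CPM in PPZ+BL, 248, 268 and 243 CPM in PPZ, 415, 354 and 454 CPM in BL, and 346, 215 and 187 CPM in mock. PPZ libraries lay below all BL libraries for this gene (log2 fold change −0.68, adjusted p = 0.00325), and the mock libraries overlapped with PPZ+BL and PPZ and lay below BL. The Aux/IAA genes next in mean CPM, Glyma.02G218100 and Glyma.01G019400, averaged 108 and 63.8 FPKM. By FPKM they ranked 3 and 8 in the family, and Glyma.10G180000 ranked 2 with 143 FPKM. The strongest ARF gene was Glyma.01G103500 with 74.7 FPKM, followed by Glyma.03G070500 with 46.6 FPKM, and neither passed the test in any comparison. The strongest GH3 gene, Glyma.03G149400, had 16.1 FPKM.

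Summed over a whole family, Aux/IAA transcripts differed little between the groups and GH3 transcripts differed more. The 60 Aux/IAA genes summed to 2356 ± 52.3 CPM in PPZ+BL, 2326 ± 112 CPM in PPZ, 2536 ± 157 CPM in BL and 2318 ± 178 CPM in mock (SD, n = 3 each). The 56 ARF genes summed to 2070 ± 141 CPM in PPZ+BL, 2038 ± 63.4 CPM in PPZ, 1776 ± 58.9 CPM in BL and 2113 ± 85.9 CPM in mock. The 27 GH3 genes summed to 357, 262 and 247 CPM in PPZ+BL, 520, 420 and 432 CPM in PPZ, 212, 243 and 245 CPM in BL, and 228, 255 and 262 CPM in mock. The PPZ libraries were thus above every other library in the GH3 sum, and the sum for each BL library lay below every PPZ+BL sum. The GH3 sum averaged 457 CPM in PPZ and 248 CPM in mock, and most of that difference lay in Glyma.03G149400 and Glyma.05G101300. These genes averaged 135 and 70.4 CPM in PPZ, against 39.5 and 9.04 CPM in mock. These sums are descriptions and carry no test.

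The 6 comparisons between groups were made with edgeR's quasi-likelihood test on the 6 libraries of each, with Benjamini-Hochberg adjustment over all features tested. A gene passed when its adjusted p did not exceed 0.01, and it was called when it passed and also reached a fold change of 3. In all, 26 of the 143 members were called in at least 1 of the comparisons, or 26 of the 122 that were tested, beside 18.5% of all features. Of the 26, 20 were Aux/IAA genes, 2 were ARF genes and 4 were GH3 genes. In PPZ+BL against PPZ, 1 member was called higher and 6 lower of 120 tested, beside 7.77% of all features called (2.16% higher and 5.61% lower). In PPZ against BL, 5 were called higher and 7 lower of 120 tested, beside 6.86% (4.85% higher and 2.01% lower). In PPZ+BL against mock, 3 were called higher and 3 lower of 120, beside 6.93% (3.82% higher and 3.11% lower), and the split was 5 higher and 3 lower when counts were scaled by library size alone. Regardless of fold, 10 members rose and 10 fell in PPZ+BL against mock, beside 6.88% of all features higher and 7.35% lower. In PPZ against mock, 8 were called higher and 2 lower of 120, beside 9.24% (6.32% higher and 2.92% lower), and the split was 4 higher and 3 lower by library size alone. In BL against mock, 6 were called higher and 4 lower of 118, beside 8.06% (4.67% higher and 3.38% lower). Libraries are shared between these comparisons, so they are not independent of each other.

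The counts against mock leaned on single libraries. For BL against mock the 10 called members became 16 without mock 1, 3 without mock 2, 6 without BL 1, 4 without BL 2 and 3 without BL 3. For PPZ against mock the 10 became 3 without mock 2, 5 without PPZ 1 and 3 without PPZ 2. For PPZ+BL against mock the 6 became 10 without mock 1, 2 without mock 2, 3 without mock 3, 2 without PPZ+BL 2 and 3 without PPZ+BL 3. In PPZ+BL against PPZ and in PPZ against BL, leaving out a library gave 6 to 8 and 11 to 15 called members, against 7 and 12 with all libraries.

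**Figure D1:**
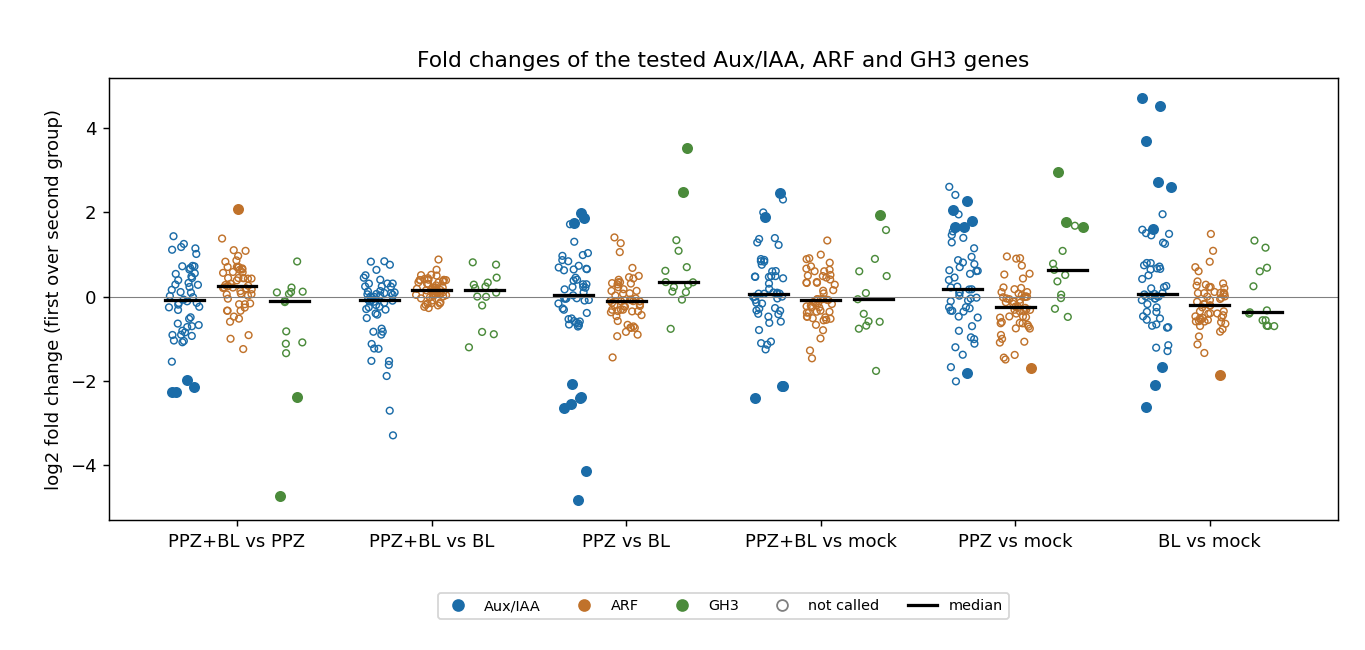
Log2 fold changes (vertical axis) of every tested Aux/IAA, ARF and GH3 gene in the 6 comparisons, with filled points for called genes, open points for the rest and black bars for medians. Most members lie near 0 in each comparison, no member is filled in PPZ+BL against BL, and the lowest points are the GH3 gene Glyma.05G101300 at −4.73 in PPZ+BL against PPZ and the Aux/IAA gene Glyma.08G207900 at −4.82 in PPZ against BL.

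No member passed the test between PPZ+BL and BL (0 of 119). Of all features, 0.00555% were called, which also requires the fold of 3, and the share that passed regardless of fold was not counted. At an unadjusted p under 0.05 there were 36 members, and 21.8% of all features were below that p. DESeq2 called 4 members, edgeR with no filter on low counts called 3, and the fit of all 12 libraries called 1. Regardless of fold, DESeq2 passed 1 Aux/IAA gene higher and 10 lower, and 2 ARF genes higher, so this result depended on the method. The smallest adjusted p was that of Glyma.02G142500, at 0.0165, with a log2 fold change of −1.53. A p above the threshold does not show that PPZ+BL and BL seedlings had the same levels.

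Aux/IAA genes, which encode the repressors, gave the largest increases after BL. With BL against mock, 9 Aux/IAA genes rose and 8 fell of 52 tested (median log2 fold change 0.07), beside 10.7% of all features in each direction. Glyma.03G158700 (chromosome 3, 38578273 to 38581813) had 2.48, 3.12 and 2.59 CPM in PPZ+BL, 0.458, 1.40 and 1.13 CPM in PPZ, 15.7, 12.8 and 24.9 CPM in BL, and 0.812, 0.998 and 0.282 CPM in mock. Its BL libraries were above all others, at a log2 fold change of 4.71 ± 0.45 (SE) over mock (adjusted p = 0.000933), and it was called in each of the 6 fits that left out 1 library. PPZ libraries were lower than BL libraries by a log2 fold change of −4.14 (adjusted p = 0.000282).

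Glyma.08G207900 (chromosome 8, 16887277 to 16890785) was also highest in BL. It lies at the position of the RefSeq gene AUX22, with which it shares 0.788 of the longer gene. It had 1.19, 1.11 and 0.349 CPM in PPZ+BL, 0.356, 0.350 and 0.196 CPM in PPZ, 7.495, 6.86 and 11.7 CPM in BL, and 0.0507, 0.578 and 0.483 CPM in mock. The BL libraries again did not overlap with any other group. It rose by 4.51 ± 0.53 on the log2 scale for BL against mock (adjusted p = 0.00146), and PPZ against BL gave −4.82 ± 0.34 (adjusted p = 0.000124).

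Glyma.19G161100 (chromosome 19, 42630797 to 42634456) lies at the position of RefSeq's AUX28, an auxin-induced gene of soybean, and shares 0.886 of the longer gene with it. It had 33.0, 40.2 and 41.1 CPM in PPZ+BL, 15.8, 18.6 and 16.7 CPM in PPZ, 90.4, 74.2 and 103 CPM in BL, and 13.1, 4.31 and 3.62 CPM in mock. All 4 groups were apart from each other, in the order BL, PPZ+BL, PPZ and mock. The log2 fold change was 3.68 ± 0.49 for BL against mock (adjusted p = 0.00207), a call that was lost without BL 2, without BL 3 or without mock 2. It was 1.14 ± 0.12 for PPZ+BL against PPZ (adjusted p = 0.00035) and −2.38 ± 0.14 for PPZ against BL.

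The low-expressed Aux/IAA genes Glyma.04G066300 and Glyma.08G200700 were also called higher in BL than in mock. Glyma.04G066300 averaged 1.96 ± 0.243 CPM in PPZ+BL, 0.812 ± 0.456 CPM in PPZ, 3.497 ± 1.36 CPM in BL and 0.530 ± 0.116 CPM in mock (SD, n = 3 each), with a log2 fold change of 2.72 for BL against mock, a call lost without mock 2. Glyma.08G200700 averaged 1.43 ± 0.465 CPM in PPZ+BL, 1.20 ± 0.0905 CPM in PPZ, 1.74 ± 0.247 CPM in BL and 0.285 ± 0.154 CPM in mock. It was called higher in PPZ than in mock as well, and every treated library lay above every mock library. For it, the call in BL against mock held in 1 of the 6 fits that left out a library, the one without mock 1. A gene outside the naming rule, Glyma.15G012700, was named after its values were seen, and it was higher in BL than in mock by a log2 fold change of 1.60 (adjusted p = 0.00747), a call that held in 1 of the 6 fits that left out a library.

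In the other direction, 3 Aux/IAA genes were called lower in BL than in mock. Glyma.10G031800 had 10.2, 13.1 and 9.72 CPM in PPZ+BL, 24.2, 21.4 and 22.1 CPM in PPZ, 23.0, 14.99 and 17.5 CPM in BL, and 44.8, 75.2 and 55.9 CPM in mock. Every treated library lay below every mock library. Against mock, PPZ+BL gave a log2 fold change of −2.41 (adjusted p = 0.00083) and BL gave −1.66 ± 0.23 (adjusted p = 0.00246), and the call in BL against mock was lost without BL 2, BL 3 or mock 2. Glyma.02G142600 was called lower in PPZ+BL than in mock as well (log2 fold change −2.11 ± 0.18, adjusted p = 0.000579), with 13.9 ± 2.54 CPM in PPZ+BL and 60.2 ± 7.40 CPM in mock (SD, n = 3 each). Glyma.19G168500 and Glyma.17G112300 were lower in BL than in mock by −2.10 and −2.62, and these calls held in 2 and 1 of the 6 fits that left out a library. Glyma.17G112300 was low-expressed, with means of 0.198 CPM in BL and 1.23 CPM in mock and at most 31 counts in a library.

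Other Aux/IAA genes stood highest in PPZ. With PPZ against mock 10 rose and 5 fell of 53 tested, beside 11.2% of all features higher and 8.35% lower. Glyma.13G361100 (chromosome 13, 44178771 to 44182150) had 8.32, 9.35 and 11.7 CPM in PPZ+BL, 52.6, 50.7 and 36.6 CPM in PPZ, 28.5, 26.3 and 34.7 CPM in BL, and 24.5, 20.9 and 17.9 CPM in mock. PPZ+BL was the lowest group and PPZ the highest, and neither overlapped with another group. On the log2 scale the change was −2.27 ± 0.18 for PPZ+BL against PPZ (adjusted p = 0.00011) and 1.15 ± 0.18 for PPZ against mock (adjusted p = 0.00346).

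Glyma.05G229300 had 20.1, 25.3 and 26.6 CPM in PPZ+BL, 125, 96.0 and 56.6 CPM in PPZ, 23.4, 25.9 and 21.9 CPM in BL, and 46.2, 58.6 and 53.8 CPM in mock. The PPZ libraries spread widely, and the lowest of them overlapped with mock. The log2 fold change was −1.96 ± 0.27 for PPZ+BL against PPZ (adjusted p = 0.00114) and 1.97 ± 0.27 for PPZ against BL (adjusted p = 0.00108). Glyma.15G012800 had 4.49, 4.14 and 7.78 CPM in PPZ+BL, 37.7, 25.4 and 14.6 CPM in PPZ, 13.4, 17.2 and 29.5 CPM in BL, and 8.98, 8.04 and 7.73 CPM in mock. PPZ+BL lay below PPZ by −2.26 ± 0.37 on the log2 scale (adjusted p = 0.00257), a call lost without PPZ 2 or without PPZ+BL 2. Glyma.13G361200 and Glyma.02G007300 were low-expressed members of the same kind, with means of 4.61 and 1.78 CPM in PPZ. Glyma.13G361200 was called lower in PPZ+BL than in PPZ (−2.15 ± 0.26, adjusted p = 0.000623), while its call against mock was lost in each of the 6 fits that left out a library.

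Glyma.02G000500 (chromosome 2, 56572 to 58524) showed the opposite order. It had 23.3, 22.7 and 18.3 CPM in PPZ+BL, 13.8, 12.1 and 12.8 CPM in PPZ, 23.6, 17.1 and 17.3 CPM in BL, and 49.0, 54.5 and 31.4 CPM in mock. PPZ was below all other groups, at −1.80 ± 0.21 against mock (adjusted p = 0.00122), and that call held in each of the 6 fits that left out a library. It rose in PPZ+BL relative to PPZ by 0.72 ± 0.13 (adjusted p = 0.00437).

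With PPZ+BL against PPZ, 8 Aux/IAA genes rose and 10 fell of 52 tested, beside 7.96% of all features higher and 11.5% lower. This balance depended on the scaling, since library size alone gave 13 higher and 6 lower. With PPZ against BL, 5 rose and 14 fell of 53 tested, beside 13.5% and 12.8%. Among the 14, Glyma.02G142500 averaged 7.20 ± 0.548 CPM in PPZ and 42.2 ± 6.96 CPM in BL (SD, n = 3 each), a log2 fold change of −2.54 ± 0.14 (adjusted p = 7.13e-05). Glyma.03G158600, which lies next to Glyma.03G158700, was lower in PPZ than in BL by −2.64 ± 0.29 (adjusted p = 0.000473).

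**Figure D2:**
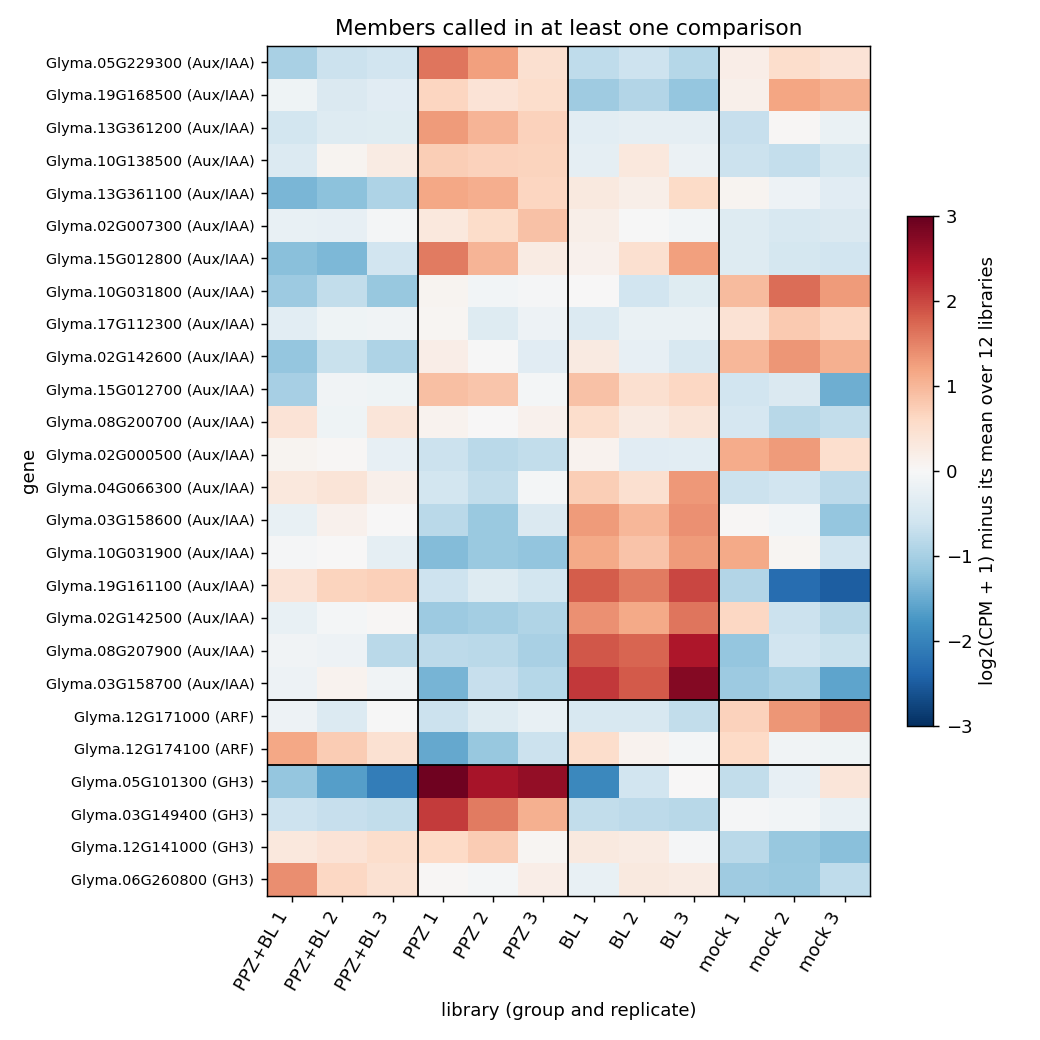
Expression of the 26 members called in at least 1 comparison, as log2(CPM + 1) minus the mean of the gene over the 12 libraries, with the groups in columns and red for higher and blue for lower values. Glyma.03G158700, Glyma.08G207900 and Glyma.19G161100 are red in the BL columns, and the GH3 genes Glyma.05G101300 and Glyma.03G149400 are red in the PPZ columns.

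Few ARF genes, which encode the transcription factors, reached a fold change of 3. With BL against mock 2 ARF genes rose and 7 fell of 53 tested, beside 10.7% of all features in each direction. With PPZ against mock 1 rose and 7 fell of 54 tested, beside 11.2% higher and 8.35% lower. With PPZ+BL against PPZ, 11 rose and 3 fell of 54 tested, beside 7.96% higher and 11.5% lower. Of the rises, 9 were among the 23 tested ARF genes without PF02309, where 1 fell, and 2 were among the 31 with PF02309, where 2 fell. The medians were 0.58 and 0.17 on the log2 scale, beside 0.01 over all features, and the difference between both kinds of ARF gene was not tested. By library size alone the ARF counts were 18 higher and 3 lower. With PPZ against BL 4 ARF genes rose and 8 fell of 53 tested, beside 13.5% higher and 12.8% lower.

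Glyma.12G174100 (chromosome 12, 34605359 to 34608860), without PF02309, was the ARF gene called in PPZ+BL against PPZ. It had 25.6, 19.1 and 15.3 CPM in PPZ+BL, 3.05, 4.35 and 6.57 CPM in PPZ, 16.0, 11.7 and 10.3 CPM in BL, and 16.7, 10.03 and 9.74 CPM in mock. PPZ was below every other library. PPZ+BL was higher than PPZ by 2.08 ± 0.30 on the log2 scale (adjusted p = 0.00135), and it was called in each of the 6 fits that left out a library. Glyma.13G174000, an ARF gene named after its values were seen, had 25.6, 25.5 and 23.9 CPM in PPZ+BL, 9.32, 9.49 and 9.71 CPM in PPZ, 22.0, 19.2 and 13.6 CPM in BL, and 20.1, 19.3 and 20.4 CPM in mock. It was lower in PPZ than in mock by −1.07 ± 0.11 (adjusted p = 0.000852), and higher in PPZ+BL than in PPZ by 1.38 ± 0.10 (adjusted p = 8.49e-05).

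Glyma.12G171000 (chromosome 12, 34108206 to 34114864), with PF02309, was highest in mock. It had 14.98, 12.3 and 16.7 CPM in PPZ+BL, 10.3, 12.7 and 14.3 CPM in PPZ, 11.8, 11.8 and 9.57 CPM in BL, and 27.6, 43.3 and 49.7 CPM in mock. All treated libraries lay below all mock libraries. On the log2 scale PPZ was lower than mock, at −1.69 ± 0.24 (adjusted p = 0.00218), which held in 2 of the 6 fits that left out a library. BL was lower than mock as well, at −1.86 ± 0.23 (adjusted p = 0.00161), which was lost without BL 2 or BL 3.

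Glyma.05G200800, with PF02309, was the ARF gene next in level at 38.4 FPKM, and it was highest in PPZ. It had 173, 142 and 133 CPM in PPZ+BL, 329, 277 and 279 CPM in PPZ, 109, 133 and 127 CPM in BL, and 166, 132 and 172 CPM in mock. The PPZ libraries were the highest and the BL libraries overlapped with mock. It was higher in PPZ than in mock by 0.91 ± 0.16 (adjusted p = 0.00458) and lower in PPZ+BL than in PPZ by −0.998 ± 0.15 (adjusted p = 0.00165). Both changes passed the test but not the fold of 3.

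**Figure D3:**
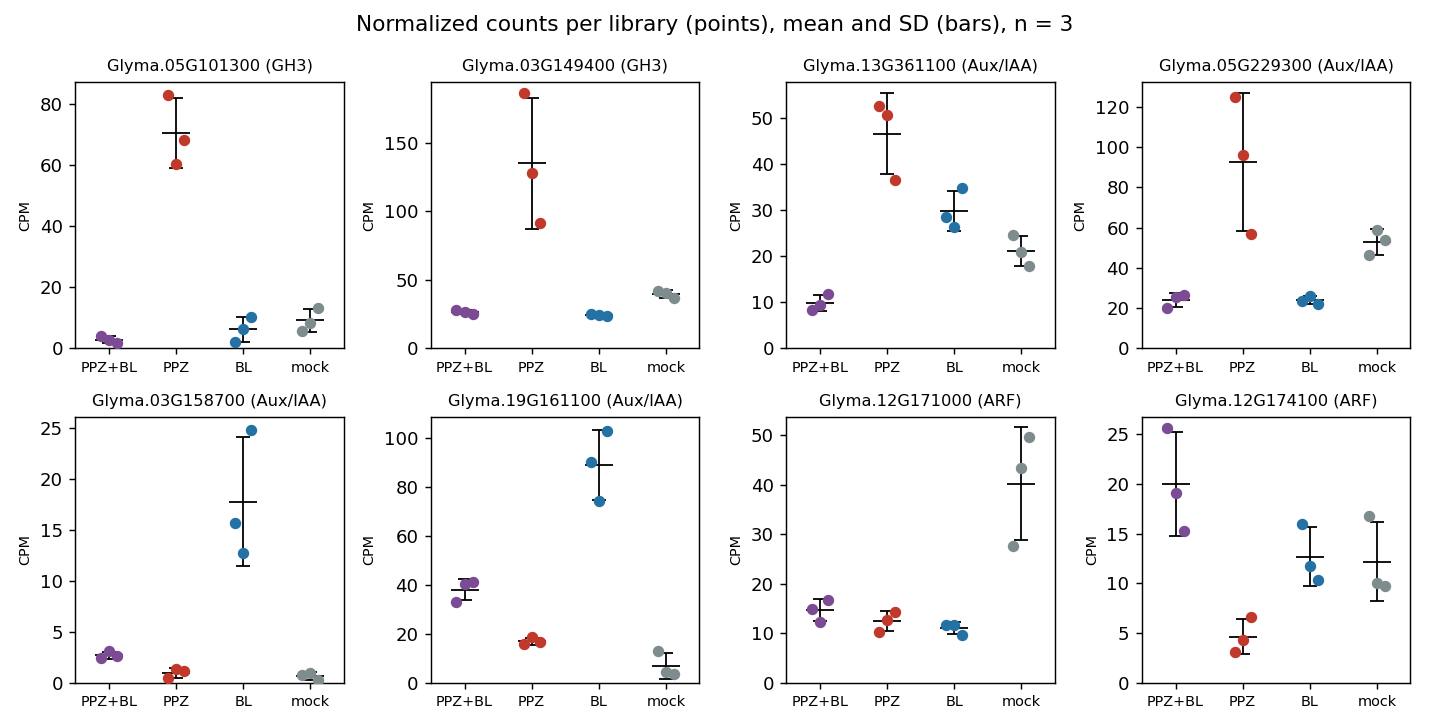
CPM per library (points) with the mean and SD (bars, n = 3) of 8 members in PPZ+BL, PPZ, BL and mock. The GH3 gene Glyma.05G101300 is at 60.2 to 82.9 CPM in PPZ, above all other libraries, whereas the Aux/IAA gene Glyma.03G158700 is highest in BL.

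GH3 genes, whose enzymes conjugate hormones, were few among the expressed members, with 13 to 14 tested of 27 in the pairwise comparisons. With PPZ against mock 5 GH3 genes rose and 0 fell of 13 tested, beside 11.2% of all features higher and 8.35% lower (9 of 13 had an unadjusted p under 0.05, beside 50% of all features, and DESeq2 gave 6 higher and 0 lower). With BL against mock 3 rose and 2 fell of 13, beside 10.7% in each direction. With PPZ+BL against PPZ 3 fell and 0 rose of 14, beside 11.5% lower and 7.96% higher (6 of 14 had an unadjusted p under 0.05, beside 44% of all features, and DESeq2 gave 1 higher and 4 lower). Glyma.05G101300 (chromosome 5, 26888131 to 26892498) shares 0.643 of the longer gene with the RefSeq gene named GH3. It had 3.93, 2.50 and 1.65 CPM in PPZ+BL, 82.9, 60.2 and 68.2 CPM in PPZ, 1.92, 6.40 and 10.2 CPM in BL, and 5.63, 8.30 and 13.2 CPM in mock. PPZ was above all other libraries, and BL and mock overlapped. The log2 fold change was −4.73 ± 0.29 for PPZ+BL against PPZ (adjusted p = 4.47e-05), 3.53 ± 0.48 for PPZ against BL (adjusted p = 0.00108) and 2.96 ± 0.31 for PPZ against mock (adjusted p = 0.00086). Each of these calls held in all 6 fits that left out a library.

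Glyma.03G149400 (chromosome 3, 37658177 to 37661691) had 27.5, 26.3 and 25.1 CPM in PPZ+BL, 186, 128 and 91.4 CPM in PPZ, 25.1, 24.5 and 23.7 CPM in BL, and 41.6, 40.5 and 36.5 CPM in mock. PPZ was highest in spite of its spread, mock came next, and PPZ+BL lay close to BL and below mock. Its log2 fold change was −2.38 ± 0.24 for PPZ+BL against PPZ (adjusted p = 0.000304), 2.48 ± 0.25 for PPZ against BL (adjusted p = 0.000352) and 1.78 ± 0.25 for PPZ against mock (adjusted p = 0.00229). The call against mock was lost without PPZ 1, without PPZ 2 or without mock 2. These 3 comparisons share the PPZ libraries.

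A further pair of GH3 genes was higher in the treated groups than in mock. Glyma.06G260800 had 86.1, 50.3 and 45.0 CPM in PPZ+BL, 33.0, 30.9 and 36.9 CPM in PPZ, 27.6, 39.9 and 38.7 CPM in BL, and 14.8, 14.3 and 18.5 CPM in mock. It was called in PPZ+BL against mock (1.93 ± 0.26, adjusted p = 0.00252), a call lost without PPZ+BL 2 or mock 2. Glyma.12G141000 had 24.2, 26.04 and 28.2 CPM in PPZ+BL, 29.7, 33.2 and 20.1 CPM in PPZ, 23.8, 23.1 and 18.9 CPM in BL, and 10.503, 8.25 and 7.57 CPM in mock. All treated libraries were above all mock libraries, and the log2 fold change was 1.66 ± 0.22 for PPZ against mock (adjusted p = 0.0019). The remaining GH3 gene of the highest levels, Glyma.07G057900, was lower in BL than in mock by −0.70 ± 0.13 (adjusted p = 0.00533).

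Members that were higher in PPZ than in mock and lower in PPZ+BL than in PPZ numbered 7 of the 119 tested in both comparisons, beside 5.42% of all features. Of these, 4 were Aux/IAA genes, 1 was an ARF gene and 2 were GH3 genes. The reverse was found for 4 of the 119, namely 2 Aux/IAA and 2 ARF genes, beside 2.01% of all features. Both comparisons rest on the same PPZ libraries, so these counts say how the levels of PPZ libraries stood between the other groups and give no independent support to each other.

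The interaction asks whether PPZ+BL differed from PPZ as BL differed from mock. It was computed over all 12 libraries as the log2 fold change of PPZ+BL over PPZ minus that of BL over mock. PPZ was given for 2 days before BL in PPZ+BL and for 2.5 days in PPZ. In PPZ+BL against PPZ and in the interaction, BL and the time in PPZ therefore cannot be told apart. In this test 13 members passed with a positive value and 16 with a negative one, of 123 tested, beside 7.77% and 9.59% of all features. By library size alone, 22 were positive and 15 negative, and DESeq2 gave 24 and 19. Aux/IAA genes had 4 positive and 12 negative, ARF genes 9 positive and 1 negative, and GH3 genes 0 positive and 3 negative. Among the members that passed, Glyma.05G101300 had the most negative value, −4.14 ± 0.70 (adjusted p = 0.00137), followed by Glyma.15G012800 with −3.52 ± 0.53 (adjusted p = 0.000727). For Glyma.05G101300, PPZ+BL was lower than PPZ while BL and mock overlapped. For Glyma.03G158700, the third by size, the log2 fold change of BL over mock was 4.71 and that of PPZ+BL over PPZ was 1.43, which did not pass, and the interaction was −3.25 ± 0.61 (adjusted p = 0.00252). The next that passed was Glyma.02G007300 with −2.77 ± 0.46 (adjusted p = 0.00127). Among members that passed, the largest positive values were those of the ARF genes Glyma.12G171000, 2.10 ± 0.30, and Glyma.12G174100, 2.03 ± 0.43. The count became 17 without PPZ 2 and 19 without PPZ+BL 2.

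**Figure D4:**
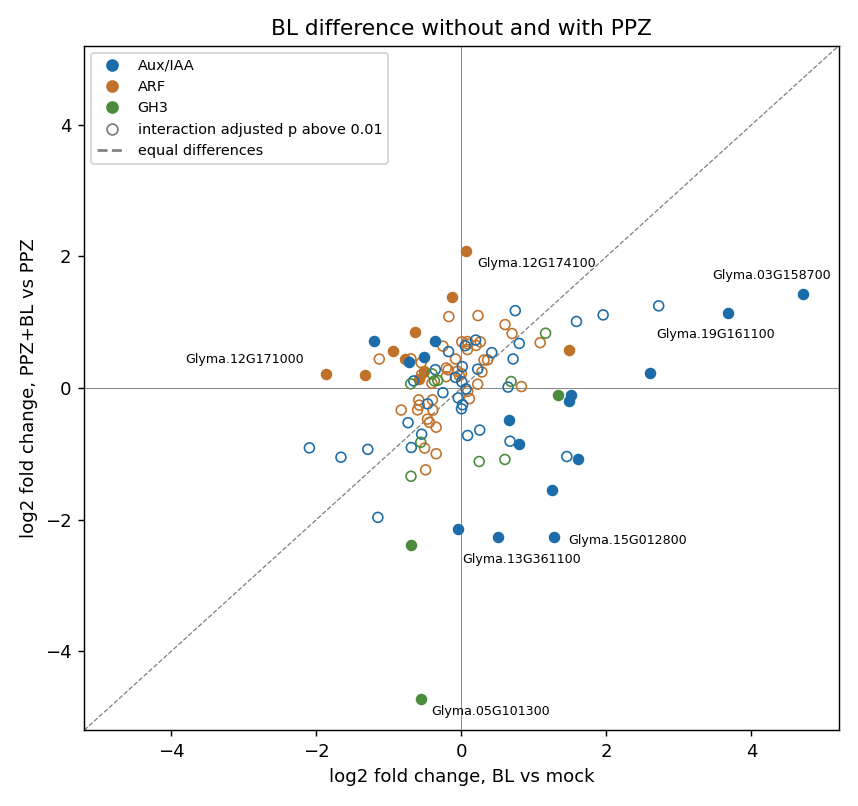
The log2 fold change of BL against mock (horizontal) and of PPZ+BL against PPZ (vertical) for the 116 members tested in both, with filled points where the interaction passed an adjusted p of 0.01. Points on the dashed line would have equal differences, and the GH3 gene Glyma.05G101300 is far below it at −4.73 on the vertical axis.

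Several Aux/IAA genes lie side by side in the genome. Within 50 kb of each other were 9 pairs of members with no gene between them (0 genes), of which 8 were pairs of Aux/IAA genes. In 6 of the 8 the starts of both genes faced each other and in the remaining pairs both genes lay on the same strand. The genes of a pair did not always move together. In PPZ+BL against PPZ, 4 of the 8 pairs had opposite signs, and in 2 of these both genes passed the test. In each of the other 5 comparisons, 0 pairs had opposite signs with both genes past the threshold, and both genes of a pair passed with the same sign in 2 pairs in PPZ against BL and 1 pair in PPZ against mock. The pair on chromosome 2 was Glyma.02G142500, which rose by 1.01 ± 0.13, and Glyma.02G142600, which fell by 0.93. The pair on chromosome 10 was Glyma.10G031900, which rose by 1.18 ± 0.13, and Glyma.10G031800, which fell by 1.05. Glyma.10G031900 had 22.8, 23.6 and 19.2 CPM in PPZ+BL, 8.86, 10.2 and 9.61 CPM in PPZ, 52.0, 43.1 and 57.7 CPM in BL, and 52.0, 24.2 and 15.4 CPM in mock. Its mock libraries spread over more than the other groups and overlapped with PPZ+BL and BL. By contrast, both genes of the pair Glyma.13G361100 and Glyma.13G361200 fell in PPZ+BL relative to PPZ.

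**Figure D5:**
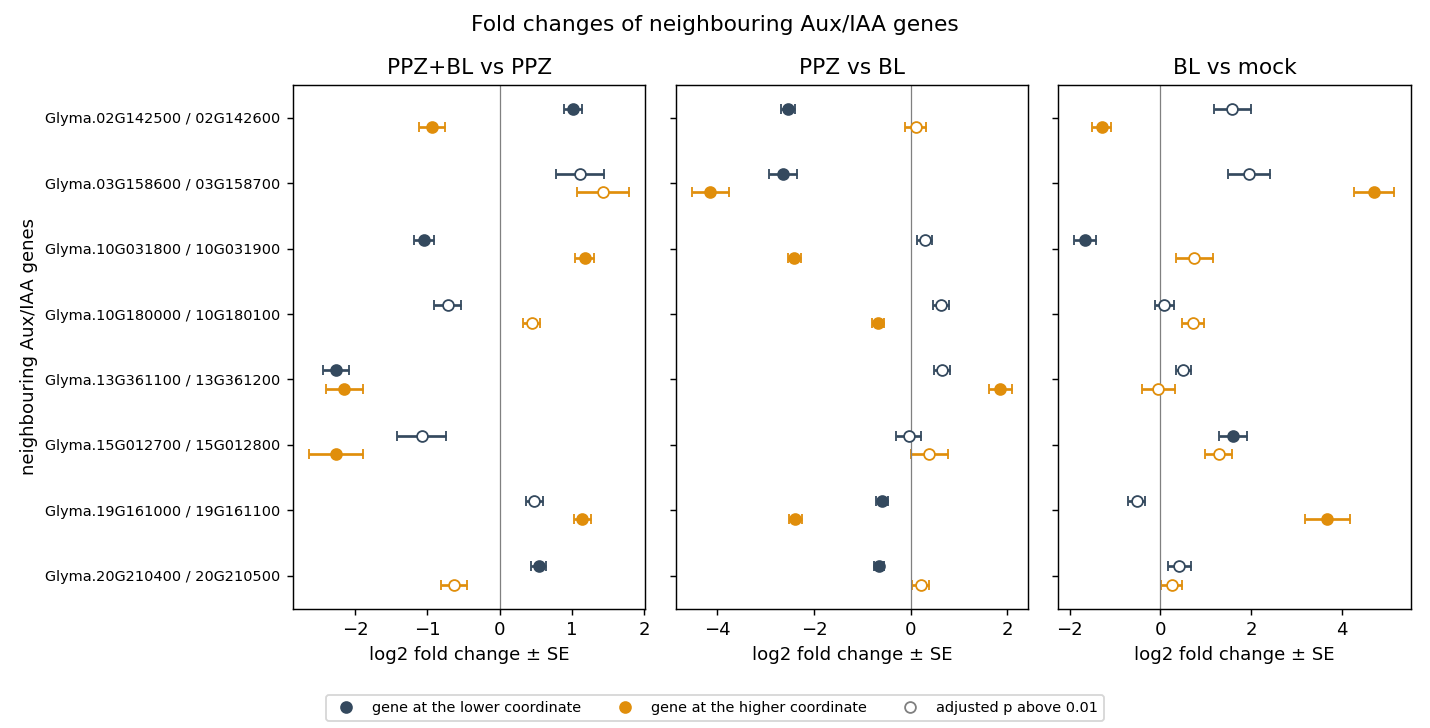
Log2 fold changes with SE of the 8 pairs of neighbouring Aux/IAA genes in 3 comparisons, with dark points for the gene at the lower coordinate, orange points for its neighbour and open points for an adjusted p above 0.01. In the left panel the genes of the pairs on chromosome 2 and at Glyma.10G031800 lie on opposite sides of 0.

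Other auxin gene families were counted in the same fits, from lists set by Pfam domain. Their counts stand beside 7.96% of all features higher and 11.5% lower in PPZ+BL against PPZ, 11.2% and 8.35% in PPZ against mock, and 10.7% in each direction in BL against mock, and shares near these are no result about a list. Among SAUR genes, which are rapidly auxin-induced, 8 rose and 6 fell of 50 tested in PPZ+BL against PPZ, and 5 rose and 11 fell of 54 in PPZ against mock. LBD genes, many of which encode transcription factors of lateral root formation, had 2 higher and 8 lower of 47 in PPZ+BL against PPZ, and 10 higher and 4 lower of 43 in PPZ against mock. Flavin monooxygenases, which include the YUCCA enzymes of auxin synthesis, had 7 higher and 6 lower of 24 in PPZ+BL against PPZ, and 6 higher and 3 lower of 23 in PPZ against mock. Their summed level lay between 543 and 775 CPM in PPZ and between 217 and 259 CPM in mock. PIN and PILS carriers, which move auxin across membranes, had 3 higher and 1 lower of 27 in PPZ+BL against PPZ, and 3 higher and 4 lower of 24 in PPZ against mock. B3 genes that are not ARF genes had 0 higher and 8 lower of 34 in PPZ+BL against PPZ, and 10 higher and 0 lower of 33 in PPZ against mock. The families were not compared with the members by a test. Aminotransferases of the alliinase family, which include the TAA1 enzyme of auxin synthesis, had 2 higher and 0 lower of 7 in each of PPZ against mock and BL against mock. Dormancy and auxin associated genes had 4 higher and 0 lower of 8 in PPZ against mock. They had 3 higher and 0 lower of 8 in each of BL against mock and PPZ+BL against mock. The 1 gene of an auxin-binding protein passed in no comparison.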

How the data were processed

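RNA-seq libraries of soybean root tips were made by the authors with poly(A) selection. The authors aligned reads with HISAT2 2.0.5 and counted them per gene with featureCounts 1.5.0-p3, and the deposited counts are not normalized. Strandedness of the counting is not given in the sources used here, and near-identical gene copies can share reads. A further 12 columns hold the authors' deposited FPKM, used here only to compare levels between genes. The table further holds the authors' 5 DESeq2 comparisons, with log2 fold changes, p-values and group means (a normalized signal), and none of these was used. No sequences were used here.

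The count model was edgeR 4.0.16 (run under R 4.3.3) with filterByExpr, TMM normalization, glmQLFit and glmQLFTest on the 6 libraries of a comparison, and on all 12 for the interaction. The SE of a log2 fold change is its size over the root of the F statistic. The p-values weigh a difference between groups against the spread between the libraries within groups. The fits were also run on simulated counts, with the same dispersion for every gene and 200 genes changed by 2 on the log2 scale. This setting is simpler than the data, so it cannot show how the fits perform on them. Also run were DESeq2 1.42.0, other size factors and filters, a joint fit of the 12 libraries, a replicate block, glmTreat at a fold change of 3, calls by adjusted p alone, and fits lacking 1 library. RefSeq symbols were matched by position in Glycine_max_v4.0, where 123 of 143 members shared at least 0.8 of the longer gene. Named genes were, per family, the 3 with the highest mean CPM, up to 4 called in each direction of each comparison, and the 4 largest interactions. Genes outside this rule were chosen after their values were seen. The members and lists were chosen with earlier results of these data known. Python 3.11.15 with pandas 2.3.3, Matplotlib 3.10.9 and NumPy 2.4.6 served for summaries and plots.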

Additional observations from a re-analysis of the deposited data

Results flagged for a closer look

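The interaction over all 12 libraries passed the test for 14 of the members named by the naming rule. The values are log2 fold changes of PPZ+BL over PPZ minus those of BL over mock. Among GH3 genes it was −4.14 for Glyma.05G101300, −1.67 for Glyma.03G149400 and −1.41 for Glyma.12G141000. Among Aux/IAA genes it was −3.52 for Glyma.15G012800, −3.25 for Glyma.03G158700, −2.77 for Glyma.02G007300, −2.75 for Glyma.13G361100, −2.51 for Glyma.19G161100, −2.35 for Glyma.08G200700, −2.08 for Glyma.13G361200, −1.62 for Glyma.10G138500 and 1.95 for Glyma.02G000500. Among ARF genes it was 2.03 for Glyma.12G174100 and 2.10 for Glyma.12G171000. Glyma.15G012700 and Glyma.13G174000, named outside the rule, passed as well, at −2.66 and 1.52. Of these, Glyma.08G200700 passed in 3, Glyma.13G361200 in 6, Glyma.12G174100 in 6, Glyma.10G138500 in 7, Glyma.19G161100 in 8 and Glyma.03G158700 in 11 of the 12 fits lacking 1 library each, and the others passed in all 12.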

How the results depend on the processing

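Over all members, 74 values were counted as called and 103 further values of the pairwise comparisons passed. The 74 include the 29 interaction values, which passed an adjusted p of 0.01 with no fold threshold. None of the 74 and 103 values reversed its sign under the alternatives that kept these thresholds. In all of those alternatives, 39 of the 74 and 19 of the 103 kept their side of the threshold. The 39 are therefore not a share of calls at a fold of 3 alone. The test against a fold change of 3 and the counts without the fold threshold were not among them. Without the fold threshold the counts of members were 31 for BL against mock, 28 for PPZ against mock, 20 for PPZ+BL against mock, 35 for PPZ+BL against PPZ and 34 for PPZ against BL. Tested against a fold change of 3 they were 1, 0, 0, 1 and 5 in the same order. DESeq2 called 16 for PPZ against mock, 10 for PPZ+BL against mock and 4 for PPZ+BL against BL, where no filter gave 3 and the fit of all 12 libraries gave 1. The cause was not tested. Leaving out 1 library gave 3 to 16 for BL against mock, 3 to 11 for PPZ against mock, 2 to 10 for PPZ+BL against mock, 6 to 8 for PPZ+BL against PPZ, 0 to 1 for PPZ+BL against BL, 11 to 15 for PPZ against BL and 17 to 37 for the interaction. Library size alone shifted the median of all features by −0.12 in PPZ against mock, 0.18 in PPZ+BL against PPZ, −0.16 in PPZ against BL and 0.12 in the interaction, relative to TMM. Correlations of deviations from the group mean ran from −0.303 to 0.152 for same-numbered libraries and from −0.307 to 0.307 for differently numbered ones. With 3 libraries in a group, these correlations cannot settle whether the replicate numbers pair the samples. The replicate block gave 6 called members for PPZ against mock and 2 for PPZ+BL against mock. Genes under a few counts per library are limited by depth.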
